A study of Homo sapiens with 4 samples.

Results

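The genes described here are 31 members of cholesterol and fatty acid synthesis that are known targets or regulators of SREBP, measured in human fibroblasts before and after the transcription factor FOXA2 was switched on. They were chosen by gene symbol, 1 row of the expression table per symbol and, where a symbol had several rows, the row with the highest mean. All 31 were found among 56620 symbols. By pathway they fall into 17 genes of the sterol branch, 8 genes of the fatty acid branch and 6 genes of SREBP control and sterol transport. The cells were clonal derivatives of BJ-5ta, a foreskin fibroblast line immortalised with telomerase, that carry a FOXA2 gene under doxycycline control. The induced group had 2 samples given 0.5 µg/ml doxycycline, and the uninduced group had 2 samples of the same line without the drug. Both were grown in serum with hygromycin B, puromycin and basic fibroblast growth factor. Mimosine, which holds cells in G1, was given overnight to cultures that the labels do not specify, and the length of induction is not stated there. No sample with doxycycline but without the transgene was used here.

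RNA was sequenced from libraries that do not keep strand. Each group has 1 FPKM value per gene, a read level corrected for transcript length and sequencing depth, with lower and upper bounds by the authors. Single samples have no values of their own, so differences were not checked against replicates and carry no p-value. "Rose" and "fell" are used only for genes whose induced and uninduced intervals are separate. A looser criterion asked that the interval of the difference in FPKM leave out 0. FOXA2 itself rose, at 104 FPKM (interval 50.2 to 158) in induced cells, against 4.82 FPKM (0.526 to 9.12) in uninduced cells. All 10 fibroblast markers were detected, with summed levels of 5151 FPKM in induced cells and 5739 FPKM in uninduced cells. However, 3 of them were at least 2-fold higher and 3 at least 2-fold lower in induced cells, each with overlapping intervals. That is 60.0% of the list, against 15.2% of all genes at 1 FPKM or more in at least 1 column. Induced and uninduced values were 2111 and 863 FPKM for FN1 and 445 and 125 FPKM for COL3A1, both higher. They were 905 and 2098 FPKM for VIM and 92.5 and 388 FPKM for THY1, both lower. Log2 differences are of FPKM + 1, induced minus uninduced, so differences of weakly expressed genes are understated.

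SREBP-1 and SREBP-2, encoded by SREBF1 and SREBF2, are transcription factors made as membrane precursors in the endoplasmic reticulum. When sterols are low, the escort protein SCAP carries them to the Golgi, where proteases release the active factor. INSIG proteins hold SCAP back when sterols are plentiful. SREBP-2 acts mainly on cholesterol synthesis and uptake, and SREBP-1c mainly on fatty acid synthesis. Fibroblasts make both lipids and also take cholesterol up from serum lipoproteins.

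All 31 genes had values above 1 FPKM in both groups, and none of them rose or fell. Levels ran from 6.81 FPKM (HSD17B7) to 88.7 FPKM (SREBF1) in induced cells, and from 3.68 FPKM (TM7SF2) to 97.8 FPKM (FDPS) in uninduced cells. The median log2 difference was -0.02, with 15 genes above 0 and 16 below. Among all 14282 genes at 1 FPKM or more in at least 1 column the median was 0.05. Of these 14282 genes 1.18% rose or fell (0.728% rose and 0.448% fell), so a count of 0 in 31 lies near the background. By the looser criterion 2.37% of all genes and again 0 of the 31 differed. A difference of at least 2-fold on the log2 scale was seen for 3 of the 31, TM7SF2 and STARD4 higher and ACAT2 lower in induced cells, against 15.2% of all genes (9.17% higher and 6.01% lower). ACAT2 was under 2-fold with a pseudocount of 5 (-0.93) and after scaling to equal FPKM sums (-0.99). In ratios of FPKM, 23 of the 31 were within 1.5-fold, while 42.0% of all genes lay outside that range. All genes were at lower levels than the 31, with induced medians of 14.7 FPKM and 28.7 FPKM. Of the 9487 genes with a mean of 5 to 100 FPKM, 12.7% were at least 2-fold apart, against 9.68% of the 31. In bulk RNA, fewer cells that express a gene and less RNA per cell cannot be told apart.

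**Figure D1:**
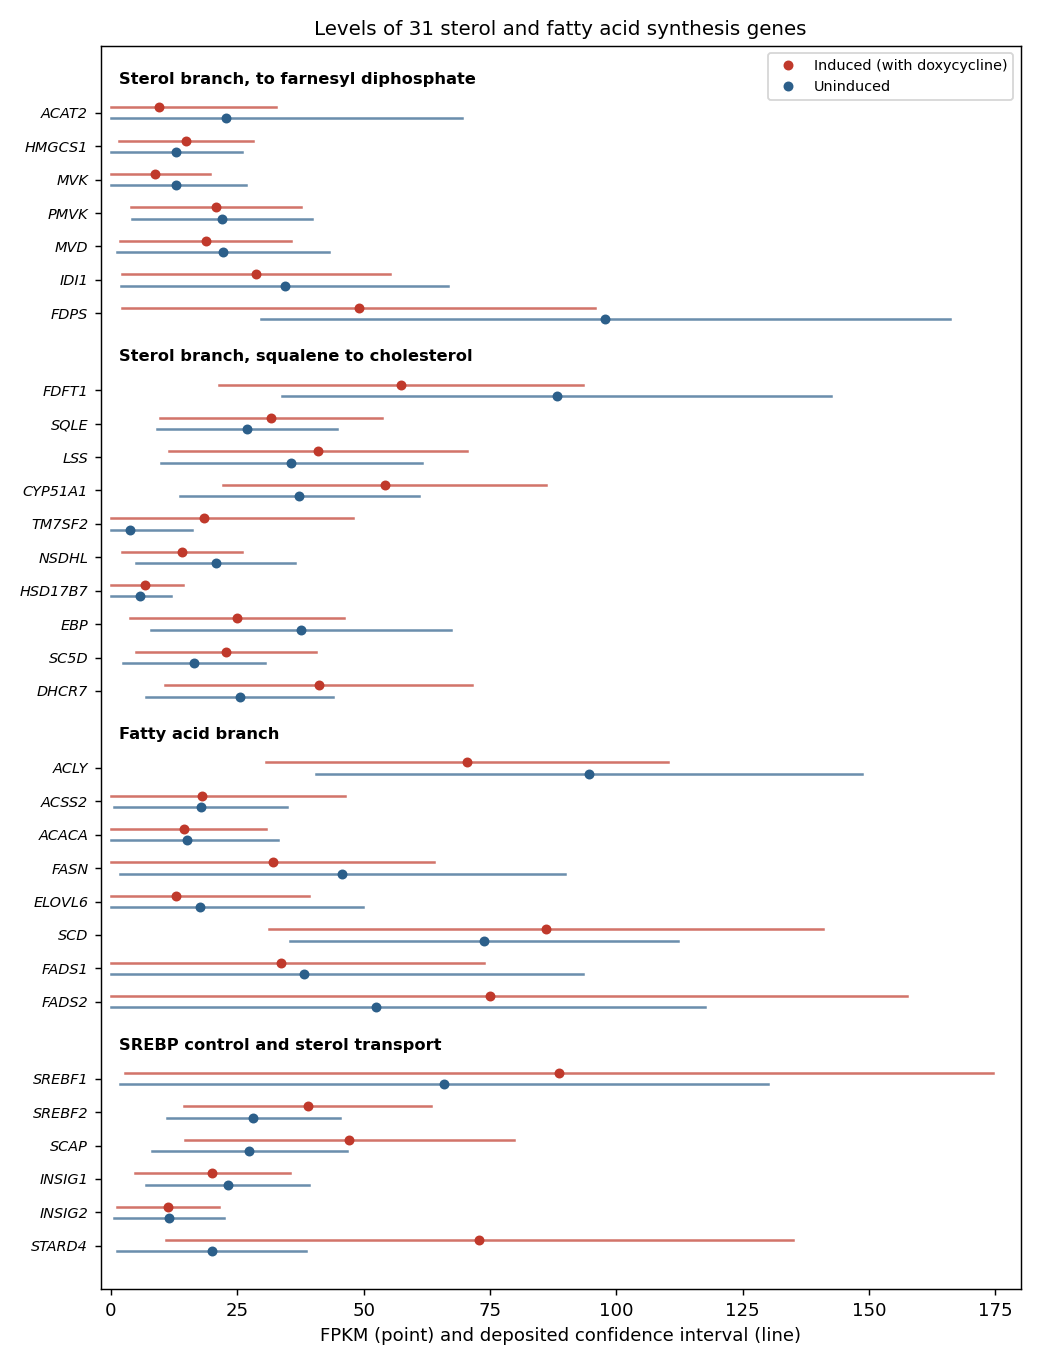
FPKM (horizontal axis) of the 31 genes in induced (red, upper line of each pair) and uninduced cells (blue, lower line); points are the deposited values and lines the deposited confidence intervals. The intervals of every pair overlap, with the points farthest apart, in ratio, for TM7SF2 (18.5 and 3.68 FPKM) and STARD4 (72.9 and 19.9 FPKM).

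The intervals set how far this goes. Over the 31 genes, upper bounds exceeded the values by a median of 89.1% in induced cells and 93.8% in uninduced cells. The lower bound was 0 for 9 of the 31 genes in induced cells and for 9 in uninduced cells. Of all 14282 genes it was 0 for 7151 in induced cells and for 7239 in uninduced cells, a larger share. A gene with a lower bound of 0 in the induced column could not have risen by the criterion, however large its value. For 27 of the 31 each value lay inside the interval of the other column. The other 4 were STARD4, TM7SF2, SCAP and FDPS, which is 12.9% of the 31, against 17.5% of all genes with 1 value outside the interval of the other column. Overlapping intervals of this width do not show that a gene stayed the same.

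The regulators had the highest median of the groups, 0.44 on the log2 scale, with 4 of 6 above 0. SREBF1 was at 88.7 FPKM (interval 2.71 to 175) in induced cells and 65.9 FPKM (1.71 to 130.1) in uninduced cells. The span of its row (chromosome 17, 17584787 to 17740325 in hg19) is shared with RAI1, another detected gene. SREBF2 (chromosome 22, 42227219 to 42303312) was at 38.9 FPKM (14.5 to 63.4) in induced cells and 28.2 FPKM (11.2 to 45.2) in uninduced cells. The ratio of SREBF1 to SREBF2 was 2.28 in induced cells and 2.34 in uninduced cells. In each column the interval of SREBF1 contained that of SREBF2, so the values do not settle which transcript was more abundant. SCAP, the escort, was at 47.2 FPKM (14.7 to 79.7) in induced cells and 27.4 FPKM (8.05 to 46.7) in uninduced cells. Its induced value lay just above the uninduced interval, with a difference of 19.8 FPKM whose interval ran from -18.0 to 57.6.

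The INSIG genes differed little in level. INSIG1, itself a target of SREBP, was at 20.1 FPKM (4.76 to 35.4) in induced cells and 23.1 FPKM (6.88 to 39.3) in uninduced cells. INSIG2 was at 11.3 FPKM (1.18 to 21.4) in induced cells and 11.5 FPKM (0.513 to 22.4) in uninduced cells. Both log2 differences were small, -0.19 and -0.02, and that of INSIG2 turned positive with the columns scaled to the same FPKM sum, where that of INSIG1 came to 0.

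STARD4, which carries cholesterol between membranes and is a known SREBP-2 target, had the largest difference in FPKM of the 31 genes. Its row (chromosome 5, 110831731 to 111353006) was at 72.9 FPKM (interval 10.8 to 135) in induced cells and 19.9 FPKM (1.23 to 38.7) in uninduced cells, a ratio of 3.65. The induced value lay above the uninduced interval, but the intervals overlapped between 10.8 and 38.7 FPKM. The difference of 52.9 FPKM had an interval of -11.9 to 118, so STARD4 missed the looser criterion as well. The span given for STARD4 is shared with 3 other detected genes, among them its antisense RNA STARD4-AS1 and NREP, and without strand the reads of STARD4 and STARD4-AS1 cannot be told apart.

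Promoter sequences were matched for 27 of the 31 genes, from RefSeq on GRCh38.p14. For each gene the first entry listed was used, and the 250 bases before its annotated start were searched on both strands. Any other starts of a gene were not searched. The motifs were TCACNCCAC and a longer sterol regulatory element for SREBP, CCAAT for NF-Y and GGGCGG for Sp1, 2 partners with which SREBP is known to act, and the E-box CACGTG. No entry was matched for ACAT2, FDFT1, SQLE and FASN. Shown here are SREBF2, which alone held letters of the SREBP motifs, STARD4 and TM7SF2 with the highest log2 differences, FDPS with the lowest among matched genes, and MVK and NSDHL with the most NF-Y matches. Capitals mark motif matches in either orientation, 5′ to 3′ towards the gene.
SREBF2: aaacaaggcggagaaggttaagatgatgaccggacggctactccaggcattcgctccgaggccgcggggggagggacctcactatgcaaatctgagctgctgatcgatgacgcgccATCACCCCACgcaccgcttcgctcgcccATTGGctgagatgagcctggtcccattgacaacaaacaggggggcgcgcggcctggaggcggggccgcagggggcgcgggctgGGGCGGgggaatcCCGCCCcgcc
STARD4: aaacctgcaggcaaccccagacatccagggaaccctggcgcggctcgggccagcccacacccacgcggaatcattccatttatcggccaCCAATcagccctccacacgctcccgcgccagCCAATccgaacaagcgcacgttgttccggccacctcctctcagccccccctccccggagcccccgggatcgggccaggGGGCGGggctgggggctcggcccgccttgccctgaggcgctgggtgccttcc
TM7SF2: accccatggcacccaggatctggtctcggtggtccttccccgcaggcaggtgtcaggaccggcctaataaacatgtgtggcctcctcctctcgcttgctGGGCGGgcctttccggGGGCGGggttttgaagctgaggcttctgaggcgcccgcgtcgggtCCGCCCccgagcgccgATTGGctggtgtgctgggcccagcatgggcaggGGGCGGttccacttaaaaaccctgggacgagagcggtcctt
FDPS: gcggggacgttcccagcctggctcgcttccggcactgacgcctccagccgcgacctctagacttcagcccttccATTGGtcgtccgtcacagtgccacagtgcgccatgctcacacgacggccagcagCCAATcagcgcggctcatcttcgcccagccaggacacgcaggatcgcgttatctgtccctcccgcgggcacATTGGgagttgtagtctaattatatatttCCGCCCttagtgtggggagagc
MVK: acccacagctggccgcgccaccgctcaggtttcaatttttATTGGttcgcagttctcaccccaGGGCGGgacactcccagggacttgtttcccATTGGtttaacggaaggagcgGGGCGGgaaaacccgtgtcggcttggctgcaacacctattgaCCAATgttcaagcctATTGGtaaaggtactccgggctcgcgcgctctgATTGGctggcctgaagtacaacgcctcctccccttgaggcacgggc
NSDHL: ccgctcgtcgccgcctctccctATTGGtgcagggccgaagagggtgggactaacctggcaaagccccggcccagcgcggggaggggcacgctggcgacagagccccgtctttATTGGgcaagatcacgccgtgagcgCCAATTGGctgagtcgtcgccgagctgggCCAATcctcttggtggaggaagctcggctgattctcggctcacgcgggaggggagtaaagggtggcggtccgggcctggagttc
The windows are chr22:41832855-41833104 on the plus strand for SREBF2, chr5:111512536-111512785 on the minus strand for STARD4, chr11:65111622-65111871 on the plus strand for TM7SF2, chr1:155308616-155308865 on the plus strand for FDPS, chr12:109573544-109573793 on the plus strand for MVK and chrX:152830813-152831062 on the plus strand for NSDHL, all in GRCh38.p14.

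In the SREBF2 window both SREBP motifs fell on 1 stretch, ATCACCCCAC, at -134 to -125 from the start, and were followed by an NF-Y match in reverse orientation at -106 to -102. The SREBP motifs were rare everywhere, TCACNCCAC in 0.875% and the longer one in 1.66% of 27305 promoters of this length. NF-Y letters were common among the members. CCAAT stood in 17 of 27 members (63.0%), against 33.0% of all promoters and 35.5% of the 9358 promoters of genes detected here. GGGCGG stood in 25 of 27 members (92.6%), against 42.3% of all promoters and 67.5% of those of detected genes. By branch, 11 of 14 matched sterol branch promoters held CCAAT, 7 of them in at least 2 copies, and 3 of 7 matched fatty acid branch promoters held it, 2 of them in at least 2 copies; the difference was not tested. In NSDHL 2 of the 5 matches overlap on opposite strands. CACGTG was found for SC5D, SCAP and INSIG1 (11.1% of members, against 6.49% of all promoters and 9.02% of those of detected genes). These are matches of letters, not measured binding sites, and FADS2 had no match in this window. Only exact letters were searched, so a promoter without a match may still hold a variant of the motif or a site outside the window.

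**Figure D2:**
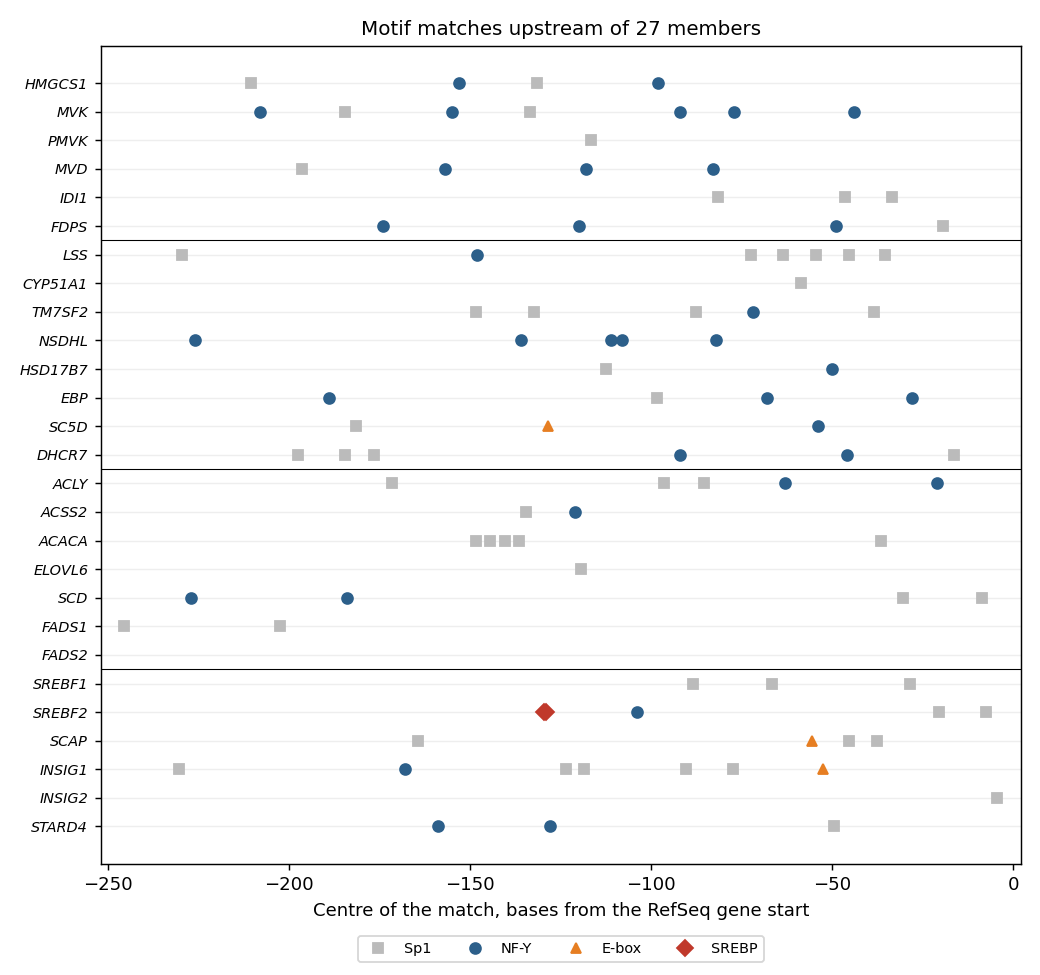
Centres of motif matches in bases from the RefSeq gene start (horizontal axis) for the 27 members with a promoter sequence, in pathway order, with black lines between the groups. NF-Y matches (blue) stand in 11 of the 14 sterol branch rows at the top, SREBP letters (red) appear for SREBF2 alone, and the FADS2 row is empty.

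The sterol branch as a whole had a median log2 difference of -0.07, with 8 of 17 genes above 0. The medians of the enzymes up to farnesyl diphosphate and of those from squalene onwards had different signs, with genes of each stage on both sides of 0. Of the 7 early genes 6 were lower in induced cells, with a median of -0.25, and of the 10 late genes 7 were higher, with a median of 0.23, beside 53.7% of all genes above 0. With both columns scaled to the same FPKM sum, PMVK turned positive and 5 of the 7 early genes were lower, and after quantile normalization it was 6 of 7 again. The late count stayed at 7 of 10 in both. Summed levels of the early genes were 150.3 FPKM in induced cells and 224.5 FPKM in uninduced cells, and those of the late genes 312.5 FPKM in induced cells and 297.5 FPKM in uninduced cells. No gene of either stage rose or fell, and the split into stages was made with earlier results of these data known.

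Among the early enzymes FDPS, which makes farnesyl diphosphate, had the largest difference in FPKM. It was at 49.0 FPKM (interval 2.25 to 95.8) in induced cells and 97.8 FPKM (29.6 to 166) in uninduced cells, a ratio of 0.502, and the uninduced value lay just above the induced interval. FDPS was the highest of the 31 genes in uninduced cells and ranked eighth in induced cells. The span of its row is shared with RUSC1 and RUSC1-AS1. The table also has rows for 8 FDPS pseudogenes, with which reads may have been shared, and likewise 3 rows for CYP51A1, 2 for HSD17B7 and 1 for SCD. ACAT2, a cytosolic acetoacetyl-CoA thiolase at the entry of the pathway, had the lowest log2 difference, -1.17. It was at 9.52 FPKM (0 to 32.6) in induced cells and 22.7 FPKM (0 to 69.5) in uninduced cells, and its span is shared with TCP1, SOD2, WTAP and SNORA20.

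The mevalonate kinases and the steps around them lay closer together. HMGCS1, which makes HMG-CoA, was at 14.9 FPKM (1.61 to 28.1) in induced cells and 12.8 FPKM (0 to 25.9) in uninduced cells, and was the 1 early gene above 0. MVK, or mevalonate kinase, was at 8.63 FPKM (0 to 19.5) in induced cells and 12.9 FPKM (0 to 26.8) in uninduced cells. PMVK, the next kinase, was at 20.8 FPKM (3.96 to 37.6) in induced cells and 21.9 FPKM (4.09 to 39.7) in uninduced cells. For these 3 genes the log2 differences ran from -0.53 (MVK) to 0.20 (HMGCS1). MVD, the decarboxylase that makes isopentenyl diphosphate, was at 18.7 FPKM (1.88 to 35.6) in induced cells and 22.1 FPKM (1.13 to 43.1) in uninduced cells. IDI1, which isomerises it, was at 28.7 FPKM (2.24 to 55.2) in induced cells and 34.3 FPKM (2.02 to 66.7) in uninduced cells.

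In the late stage TM7SF2, a sterol C14 reductase, had the highest log2 difference of the 31, 2.06, at a low level. It was at 18.5 FPKM (0 to 47.8) in induced cells and 3.68 FPKM (0 to 16.1) in uninduced cells, a ratio of 5.02. Both lower bounds were 0, the difference of 14.8 FPKM had an interval of -17.1 to 46.7, and the span is shared with VPS51, ZFPL1, TMEM262 and AP003068.9. LBR, the lamin B receptor, which has the same reductase activity and was no member, was at 13.2 FPKM (2.91 to 23.4) in induced cells and 33.9 FPKM (11.7 to 56.2) in uninduced cells, a log2 difference of -1.30. The C14 reductase genes thus had differences of opposite sign, each with overlapping intervals.

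FDFT1, EBP and NSDHL were the 3 late genes below 0. FDFT1, or squalene synthase, was at 57.4 FPKM (21.4 to 93.5) in induced cells and 88.2 FPKM (33.9 to 142) in uninduced cells. EBP, a sterol isomerase, was at 24.97 FPKM (3.79 to 46.1) in induced cells and 37.6 FPKM (7.96 to 67.3) in uninduced cells. NSDHL, a sterol dehydrogenase, was at 14.01 FPKM (2.08 to 25.9) in induced cells and 20.7 FPKM (5.02 to 36.4) in uninduced cells. Their log2 differences were close to each other, -0.61, -0.57 and -0.53.

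The other late genes had higher values in induced cells. DHCR7, which makes cholesterol from 7-dehydrocholesterol, was at 41.1 FPKM (10.8 to 71.4) in induced cells and 25.5 FPKM (7.03 to 44.0) in uninduced cells, a log2 difference of 0.67. CYP51A1, the lanosterol demethylase, was at 54.2 FPKM (22.2 to 86.1) in induced cells and 37.3 FPKM (13.7 to 60.9) in uninduced cells. SC5D, a sterol desaturase, was at 22.8 FPKM (4.97 to 40.6) in induced cells and 16.4 FPKM (2.30 to 30.4) in uninduced cells. These 3 differed by less than the width of either interval. SQLE, the squalene epoxidase that is a control point of the pathway, was at 31.8 FPKM (9.80 to 53.7) in induced cells and 26.8 FPKM (9.03 to 44.7) in uninduced cells. LSS, which closes squalene epoxide to lanosterol, was at 41.0 FPKM (11.5 to 70.5) in induced cells and 35.7 FPKM (9.94 to 61.5) in uninduced cells. HSD17B7, a sterol ketone reductase, was the lowest of the 31 in induced cells, at 6.81 FPKM (0 to 14.3), against 5.67 FPKM (0 to 11.8) in uninduced cells.

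The fatty acid branch had a median log2 difference of -0.12, with 3 of 8 genes above 0 and none 2-fold apart. This sign depends on scaling: with both columns at the same FPKM sum 5 of 8 were above 0, and after quantile normalization 2 of 8. ACLY, which makes cytosolic acetyl-CoA from citrate, was at 70.5 FPKM (30.7 to 110.3) in induced cells and 94.6 FPKM (40.5 to 149) in uninduced cells, where it was the most abundant of the branch. ACSS2, which makes acetyl-CoA from acetate, was at 18.0 FPKM (0 to 46.2) in induced cells and 17.7 FPKM (0.692 to 34.7) in uninduced cells. ACACA, or acetyl-CoA carboxylase 1, was at 14.4 FPKM (0 to 30.7) in induced cells and 15.1 FPKM (0 to 33.1) in uninduced cells. The last pair gave the log2 differences nearest to 0 in the branch, 0.02 and -0.07, and each changed sign under a scaling. FASN, the fatty acid synthase, was at 32.0 FPKM (0.0527 to 64.0) in induced cells and 45.8 FPKM (1.75 to 89.9) in uninduced cells, the lowest log2 difference of the branch at -0.50.

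Elongation and desaturation genes followed no single direction. ELOVL6, which elongates palmitate, was at 13.0 FPKM (0 to 39.2) in induced cells and 17.7 FPKM (0 to 49.97) in uninduced cells. SCD, the stearoyl-CoA desaturase, was at 86.1 FPKM (31.3 to 141) in induced cells and 73.8 FPKM (35.5 to 112) in uninduced cells, and was the most abundant of the branch in induced cells. FADS1 and FADS2 are neighbouring desaturase genes for polyunsaturated fatty acids, and the table gives both the span of chromosome 11, 61447905 to 61634826. FADS2 was at 74.97 FPKM (0 to 158) in induced cells and 52.5 FPKM (0 to 117) in uninduced cells, the highest log2 difference of the branch at 0.51. FADS1 was at 33.7 FPKM (0 to 73.8) in induced cells and 38.2 FPKM (0 to 93.4) in uninduced cells, and its sign turned positive with the columns at the same FPKM sum. All 4 lower bounds of the FADS pair were 0.

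The medians of the sterol and the fatty acid branch differed by 0.05 on the log2 scale. Single genes ran from -1.17 to 2.06 in the sterol branch and from -0.50 to 0.51 in the fatty acid branch. Neither branch had a gene that rose or fell. Summed levels were 463 FPKM in induced cells and 522 FPKM in uninduced cells for the sterol branch, and 343 FPKM in induced cells and 355 FPKM in uninduced cells for the fatty acid branch. Genes are not replicates of a condition, so the branches were set side by side without a test.

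**Figure D3:**
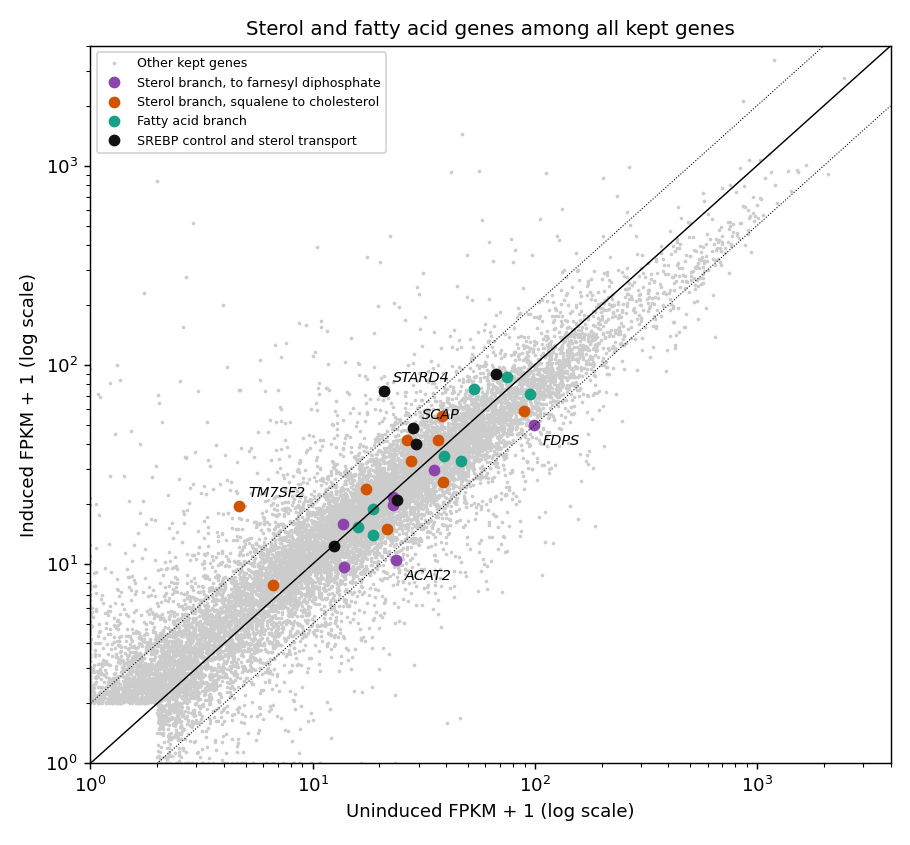
Induced against uninduced FPKM + 1 on log axes, with the detected genes that fall within the axes in grey and the 31 members coloured by pathway stage; the solid line marks equal values and the dotted lines a 2-fold difference. STARD4 and TM7SF2 lie above and ACAT2 below the dotted lines, with FDPS close to the lower one (log2 difference -0.98) and the other members between them.

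Other genes of these pathways were read from lists by function. Of 7 other sterol synthesis genes all were detected, 3 were above 0 and none met either criterion, with a median of -0.04. Of 29 other fatty acid and glycerolipid genes 26 were detected, with a median of -0.09. FADS3, a relative of the FADS desaturases, had the lowest log2 difference there (-1.39), at 18.8 FPKM (2.45 to 35.1) in induced cells and 50.8 FPKM (15.5 to 86.1) in uninduced cells. ACACB, the mitochondrial acetyl-CoA carboxylase, was at 2.66 FPKM (0 to 9.07) in induced cells and 0.373 FPKM (0 to 1.87) in uninduced cells. The 11 genes for SREBP proteases and sterol-regulated protein degradation had a median of -0.05 and none was 2-fold apart. In that list VCP, an ATPase that extracts proteins from the membrane, was at 99.8 FPKM (41.9 to 158) in induced cells and 178 FPKM (68.8 to 288) in uninduced cells. UFD1L, a partner of VCP, was at 54.9 FPKM (0 to 128) in induced cells and 76.9 FPKM (0.576 to 153) in uninduced cells. The 14 genes of non-sterol isoprenoids had a median of -0.06, and PDSS1, of ubiquinone side chain synthesis, was at 3.91 FPKM (0 to 14.7) in induced cells and 10.3 FPKM (0 to 29.8) in uninduced cells.

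Sterol uptake, storage and efflux held the 3 genes of the lipid lists that met the looser criterion, which 1.26% of all genes met as higher and 1.11% as lower in induced cells. Of 23 genes 21 were detected, 15 of them above 0, with a median of 0.30 (0.05 for all genes), and none rose or fell by separate intervals. ABCA1, the transporter that exports cholesterol to apolipoprotein A-I, was at 20.9 FPKM (interval 9.23 to 32.6) in induced cells and 6.03 FPKM (2.03 to 10.0) in uninduced cells. Its difference of 14.9 FPKM had an interval of 2.53 to 27.2, and its intervals overlapped only between 9.23 and 10.0 FPKM. VLDLR, a lipoprotein receptor, was at 15.2 FPKM (2.81 to 27.5) in induced cells and 1.63 FPKM (0 to 3.71) in uninduced cells, a difference of 13.5 FPKM with an interval of 1.01 to 26.1. NCEH1, a neutral cholesterol ester hydrolase, was lower, at 13.3 FPKM (4.38 to 22.2) in induced cells and 40.2 FPKM (17.2 to 63.2) in uninduced cells, a difference of -26.9 FPKM with an interval of -51.6 to -2.27.

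**Figure D4:**
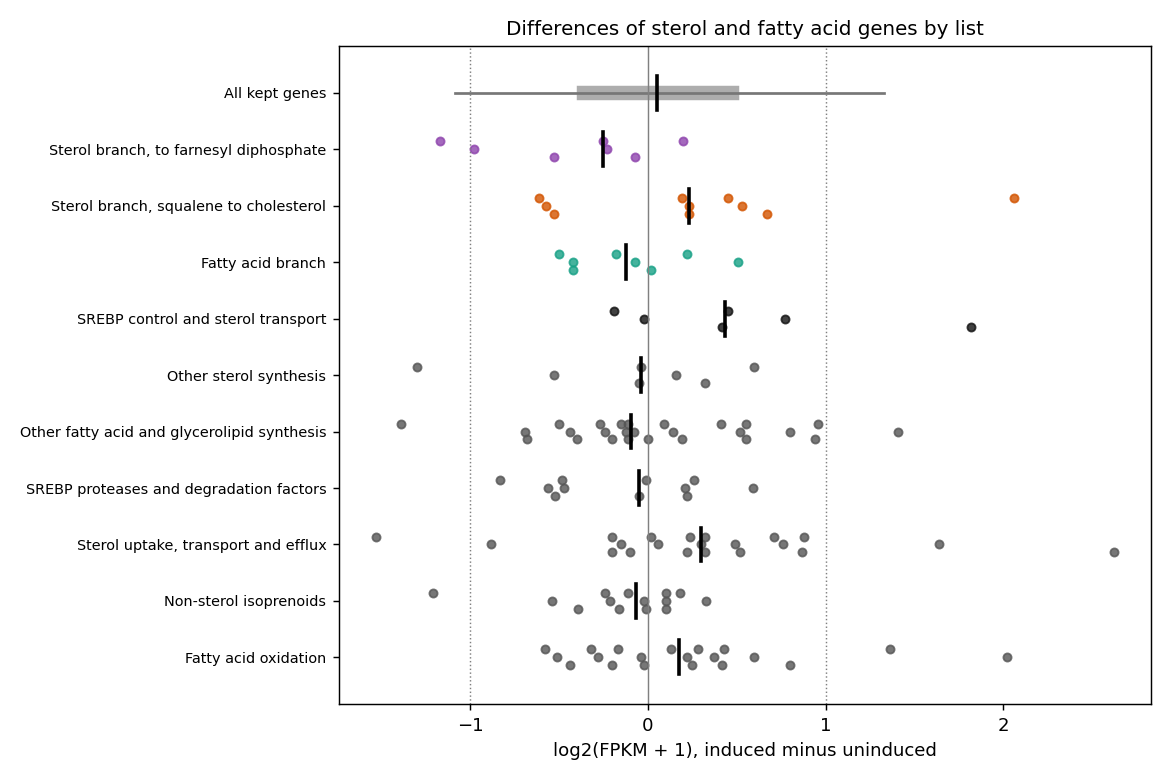
Log2 differences of FPKM + 1, induced minus uninduced (horizontal axis), for the detected genes of each list; black ticks are medians, dotted lines mark a 2-fold difference, and the grey bar gives the median, middle 50% and middle 90% of all detected genes. The 4 member groups lie around 0 with medians from -0.25 to 0.44, and sterol uptake, transport and efflux has the widest range of the lists plotted (-1.53 to 2.62).

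Oxidation and oxysterol genes were set beside synthesis. Of 21 genes of fatty acid oxidation 20 were detected, with a median of 0.17 and none that rose or fell. CPT1A, the carnitine palmitoyltransferase that admits fatty acids to mitochondria, was at 30.9 FPKM (11.2 to 50.5) in induced cells and 11.4 FPKM (3.75 to 19.1) in uninduced cells. Its muscle form CPT1B was at 8.81 FPKM (0 to 25.7) in induced cells and 1.42 FPKM (0 to 6.60) in uninduced cells, on a span shared with CHKB. Of 7 oxysterol enzymes 2 were detected, CYP27A1, or sterol 27-hydroxylase, at 3.95 FPKM (0 to 7.94) in induced cells and 1.84 FPKM (0 to 4.16) in uninduced cells, and HSD3B7 at 9.57 FPKM (1.04 to 18.1) in induced cells and 11.3 FPKM (2.14 to 20.5) in uninduced cells. CH25H, which makes 25-hydroxycholesterol, an oxysterol that holds SREBP back, was at 0.0391 FPKM in induced cells and listed at 0 in uninduced cells.

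Lipid synthesis is prominent in fat, liver and skin gland cells, so their markers were read as well. Of 8 fat cell markers 2 were detected, with ADIPOQ, LEP, FABP4 and CIDEA listed at 0 in both columns. The detected ones were LIPE and PPARG, a nuclear receptor of fat cell differentiation that fibroblasts also express. PPARG was at 43.6 FPKM (16.4 to 70.7) in induced cells and 13.3 FPKM (2.11 to 24.5) in uninduced cells and met the looser criterion. The summed level of the list was 49.9 FPKM in induced cells and 17.3 FPKM in uninduced cells, most of it PPARG in both. Of 8 hepatocyte markers 3 were detected and FGB alone rose, with APOB, TTR and AHSG listed at 0 in both columns. The hepatocyte list summed to 46.9 FPKM in induced cells, nearly all of it FGB, and 1.12 FPKM in uninduced cells. FGB was at 44.2 FPKM (13.3 to 75.1) in induced cells and 0.289 FPKM (0 to 1.54) in uninduced cells. APOA1 was at 1.21 FPKM (0 to 7.77) in induced cells and 0.102 FPKM (0 to 1.67) in uninduced cells. Of 8 keratinocyte and sebaceous markers 2 were detected, PERP and KRT10. PERP was at 33.5 FPKM (15.6 to 51.3) in induced cells and 42.1 FPKM (19.9 to 64.2) in uninduced cells. KRT10 was at 10.6 FPKM (0.546 to 20.7) in induced cells and 16.1 FPKM (2.96 to 29.3) in uninduced cells. That list summed to 44.4 FPKM in induced cells and 58.4 FPKM in uninduced cells, with KRT5, KRT1 and AWAT2 at 0 in both. Of 7 immune markers 3 were detected. They and the rest of the list summed to 182 FPKM in induced cells and 95.4 FPKM in uninduced cells, nearly all of it CD68. CD68 was at 178 FPKM (0 to 415) in induced cells and 94.0 FPKM (0 to 299) in uninduced cells. Its span is shared with EIF4A1, SENP3 and other detected genes. CD14 was at 2.15 FPKM (0 to 4.75) in induced cells and 0.823 FPKM (0 to 2.18) in uninduced cells, and CD3E was at 0 in both. The part of other cells in the values of the 31 genes was not tested.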

How the data were processed

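The authors deposited 1 table of FPKM values, with lower and upper confidence bounds in the same unit, 1 column set per group, per the file headers. The submitters' processing notes name TopHat and hg19. The sources used here do not give the version, the quantifier, the level of the intervals or whether a column combines the 2 samples of its group. Depth is unknown, since the table holds no counts. Another 3 value columns match none of the samples and were used in no step. Locus starts in the table are counted from 0 (end minus start equals the GENCODE v29 gene length in 22132 of 52511 rows, and is 1 short of it in 326) and are printed counted from 1.

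From 63651 rows, 1 row per symbol was taken (56620), and genes reaching 1 FPKM in either column were kept (14282). Log2 differences used a pseudocount of 1. The interval of a difference combined the distances from value to upper bound as the root of their summed squares, and 3 genes whose bounds do not enclose the value could not be called. The planned limma fit needs values per sample and was not run. The members, lists and criteria were chosen with earlier results of these data known, and no list was tested. All 31 members were to be named, and of every other list up to 4 genes by criterion and then size of difference, or the 2 most abundant. CH25H, LIPE and the markers listed at 0 were named after their values were seen. Motifs were searched by letters. Python 3.11.15, pandas 2.3.3, NumPy 2.4.6 and matplotlib 3.10.9 were used. The code for the calls was run on simulated data. Planted changes there had intervals far narrower than the deposited ones, so that run does not show which changes could be called here.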

Additional observations from a re-analysis of the deposited data

How the results depend on the processing

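All alternatives were planned. None of the 31 genes was called under any of them: pseudocounts of 0.1 and 5, no filter on low values, a mean of at least 5 FPKM, columns scaled to the same FPKM sum, quantile normalization, all rows of a symbol summed, and the interval of the difference. Scaling to the same sum moved the median of all genes to 0.23 (0.05 as deposited), and with it the medians of the sterol branch to 0.12, the fatty acid branch to 0.07 and the regulators to 0.63, so that both branches changed sign. Relative to the median of all genes, the branches lay at -0.13 and -0.17 as deposited and at -0.12 and -0.17 after that scaling. After quantile normalization the regulators were at 0.56. With the interval of the difference as criterion 180 genes of the whole table were higher and 158 lower in induced cells, against 104 and 64. TM7SF2 ran from 1.44 (pseudocount 5) to 2.30 (pseudocount 0.1), and 5 of 31 genes (PMVK, ACSS2, ACACA, FADS1 and INSIG2) changed sign under a scaling. The width of the deposited intervals limits all of these values. No paired analysis was possible because single samples have no values in the table, and for the same reason neither the replicate block nor fits without a replicate were run.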
